A study of Mus musculus with 16 samples.

Results

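The set described here comprised 1439 accessible chromatin regions centred in the promoter of a long noncoding RNA (lncRNA) gene and in no promoter of a protein-coding gene. For every annotated transcript, the promoter was the stretch beginning 1000 bp before its transcription start site (TSS) and ending 100 bp after it. The lncRNA genes were those that GENCODE M21 types as lincRNA (intergenic), antisense or processed_transcript, so the short name of the set, which lists lincRNA and antisense genes, leaves out the processed_transcript genes that the rule includes. The members were 1.82% of the 79278 autosomal regions in a merged list of 81132. ATAC-seq marks open chromatin with a transposase that cuts accessible DNA. It was performed on SBROS, a mouse embryonic stem (ES) cell line made from CGR8 by knock-in. Both alleles of SOX2 carry a SNAP-tag and a single allele of OCT4 a HALO-tag, and the line also holds reporters of SOX1 and Brachyury. Cells grew on gelatin in serum with LIF, CHIR99021 and PD184352, were stained with HaloTag TMR ligand, SNAP-SiR647 and Hoechst, and were sorted in G1 phase by both tags. The 4 groups were SHOH (SOX2 high, OCT4 high), SHOL (SOX2 high, OCT4 low), SLOH (SOX2 low, OCT4 high) and SLOL (both low), with 3 replicates each. All 12 libraries come from a single knock-in line and were pooled in the list, which gives positions without levels, so no group was compared with another and the list does not give the depth of a library.

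Promoters of lncRNA genes are transcribed by RNA polymerase II, like those of coding genes, but the RNA is mostly nuclear, scarce and restricted to fewer cell types. Many lncRNAs arise beside or inside coding genes, where open chromatin can belong to both, and others start far from any coding gene, often at sequences left by transposable elements. In ES cells a group named pluripotency-associated transcripts (Platr) falls with differentiation, while imprinted lncRNAs silence neighbouring genes on a single parental chromosome.

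CpG content varied widely among the members, and 5 start sites chosen as extremes of the named gene lists show the difference. They are the TSS-covering regions of these lists with 2 of the 3 highest and with the 3 lowest ratios of observed to expected CpG, and each sequence runs from 90 bases before the TSS to 50 bases from the TSS on, in GRCm38 (mm10). The remaining site of the 3 highest is not shown. All 5 lie between coding genes. The high ones are Lncpint, a nuclear RNA induced by p53 (chr6:31216317-31216456, minus strand), and Hoxb3os in the Hoxb cluster (chr11:96354642-96354781, minus strand). The low ones are Snhg15, a small nucleolar RNA (snoRNA) host (chr11:6526681-6526820, minus strand), Platr16 (chr4:145410155-145410294, plus strand) and Platr9 (chr4:34911432-34911571, minus strand). Capitals mark each CG pair, of which there were 24 in Lncpint, 11 in Hoxb3os, 2 in Snhg15, 4 in Platr16 and 1 in Platr9. The sites were ranked by the ratio over the whole region, so the number of pairs in the stretch shown need not follow the ranking. Over the whole accessible region the ratio was 1.07 in Lncpint and 0.858 in Hoxb3os, against 0.141 in Snhg15, 0.14 in Platr16 and 0.138 in Platr9. Repeats made up 62.1% of the Snhg15 region, 20.9% of the Platr16 region and 33.3% of the Platr9 region. They made up 3.74% of the Lncpint region and 0% of the Hoxb3os region, against a median of 6.67% over all members. In Lncpint and Snhg15 the TSS shown lies inside the gene. The region at the outermost annotated TSS had a ratio of 0.521 in Lncpint and 0.628 in Snhg15, so these sites do not stand for the whole gene.
Lncpint: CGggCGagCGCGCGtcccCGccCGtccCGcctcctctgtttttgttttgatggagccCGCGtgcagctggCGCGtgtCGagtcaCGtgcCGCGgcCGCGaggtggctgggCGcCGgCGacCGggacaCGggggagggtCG
Hoxb3os: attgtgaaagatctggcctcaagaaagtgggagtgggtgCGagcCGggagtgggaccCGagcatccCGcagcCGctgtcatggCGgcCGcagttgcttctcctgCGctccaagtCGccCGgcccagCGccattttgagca
Snhg15: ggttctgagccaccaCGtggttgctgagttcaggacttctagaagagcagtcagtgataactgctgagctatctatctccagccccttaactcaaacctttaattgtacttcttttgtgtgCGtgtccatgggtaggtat
Platr16: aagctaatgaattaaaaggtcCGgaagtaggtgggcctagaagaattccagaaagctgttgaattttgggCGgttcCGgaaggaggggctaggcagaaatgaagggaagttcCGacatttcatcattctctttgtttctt
Platr9: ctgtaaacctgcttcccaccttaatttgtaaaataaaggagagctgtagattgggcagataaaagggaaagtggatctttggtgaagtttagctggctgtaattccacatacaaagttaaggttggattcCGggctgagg

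Since the cells were sorted by OCT4 and SOX2, the second set shows members holding a motif word of both factors. The words were the OCT octamer ATGCAAAT and the SOX motifs CCTTTGT and CCATTGT, each read on both strands, and no word contains another. Of all autosomal regions, 2.65% held the octamer and 16.0% a SOX motif, and 9 members (0.625%) held both, against 0.617% of all autosomal regions. Among the 9, the regions of Gm32856 and Gm20939 share sequence with each other, as the final set shows. The stretches of Gm21814 and Gm32856 printed below also resemble each other around the octamer, and both hold gtaggctattgga upstream of it. Their octamers are therefore not to be read as independent finds. The rule for shared sequence asks for exact words and does not group Gm21814 with Gm32856, and their similarity was not tested further. The 5 widest of the 9 were all lincRNA promoters between coding genes that covered their TSS: Gm21814 (chr6:149565770-149565922, plus strand), Gm32856 (chr8:129263378-129263465, plus strand), B530045E10Rik (chr10:99298654-99298766, plus strand), Gm10451 (chr12:76444357-76444481, plus strand) and Gm31805 (chr8:95833623-95833677, minus strand). Sequences are from GRCm38, on the strand of the gene, and capitals mark the motif words. In Gm32856 the SOX motif lay 320 bases from the octamer and is not in the stretch shown. The words were 108 bases apart in Gm21814, 80 in Gm10451, 68 in B530045E10Rik and 10 in Gm31805. In Gm31805 both lay just downstream of the TSS, with the octamer starting at 13 bases and the SOX motif at 31 bases. A match describes letters and does not show binding.
Gm21814: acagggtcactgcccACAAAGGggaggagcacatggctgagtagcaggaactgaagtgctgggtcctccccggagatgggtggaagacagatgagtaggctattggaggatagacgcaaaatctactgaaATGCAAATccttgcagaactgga
Gm32856: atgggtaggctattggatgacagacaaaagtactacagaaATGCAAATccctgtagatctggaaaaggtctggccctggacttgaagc
B530045E10Rik: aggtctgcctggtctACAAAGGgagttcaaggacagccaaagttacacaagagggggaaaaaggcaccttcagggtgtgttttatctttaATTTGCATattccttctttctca
Gm10451: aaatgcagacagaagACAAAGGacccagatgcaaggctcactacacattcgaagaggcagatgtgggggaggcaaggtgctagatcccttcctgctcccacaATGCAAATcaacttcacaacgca
Gm31805: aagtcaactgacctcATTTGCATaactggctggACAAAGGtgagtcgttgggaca

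The final set shows that members on different chromosomes can share a stretch of sequence. Gm31793 on chromosome 10 (chr10:130542206-130542315), Gm20939 on chromosome 17 (chr17:94864769-94864878) and Gm32856 on chromosome 8 (chr8:129263481-129263590), all on the plus strand of GRCm38 between coding genes, share most of a 110-base stretch upstream of their TSS. Capitals mark the 102 bases in shared runs of at least 12 bases, and repeats made up 4.96%, 0% and 7.26% of the respective regions. Of the 20-base words in each whole region, 30.5%, 26.8% and 29.1%, in the same order, were shared with the closest other member. Members such as these are not independent sequences. The authors kept uniquely mapped reads, which in shared stretches can be placed only where those stretches differ within a fragment.
Gm31793: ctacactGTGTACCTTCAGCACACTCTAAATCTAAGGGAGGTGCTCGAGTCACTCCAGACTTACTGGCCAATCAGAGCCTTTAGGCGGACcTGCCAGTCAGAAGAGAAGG
Gm20939: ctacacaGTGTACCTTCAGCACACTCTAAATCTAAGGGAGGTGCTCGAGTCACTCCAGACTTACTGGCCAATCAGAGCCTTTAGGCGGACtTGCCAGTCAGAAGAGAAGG
Gm32856: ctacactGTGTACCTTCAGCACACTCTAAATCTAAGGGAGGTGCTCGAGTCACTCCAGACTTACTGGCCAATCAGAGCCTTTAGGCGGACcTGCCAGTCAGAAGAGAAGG

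The cells' label was checked at marker promoters. An accessible promoter was found for 6 of 8 ES cell markers (Pou5f1, Sox2, Esrrb, Zfp42, Klf4 and Tdgf1) and for neither Nanog nor Tfcp2l1, while 58.9% of all coding genes had one. Promoters of markers of other cells were accessible too, at 3 of 3 fibroblast, 2 of 3 endoderm, 1 of 2 trophectoderm, 2 of 2 neuroectoderm and 1 of 2 mesoderm genes. An open promoter is not expression, so promoters in this list do not identify the cell type. At the ends of the promoter window, the members just inside were at Gm15870, centred -1000 bp from the TSS, and Gm20063, centred 99 bp from it. The regions just outside were at Six3os1 (-1003 bp) and 4930404O17Rik (101 bp).

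Of the 8875 annotated autosomal lncRNA genes, 5209 are lincRNA, 2913 antisense and 753 processed_transcript genes. Of the 1439 members, 781 (54.3%) were at lincRNA genes, 461 (32.0%) at antisense genes, 184 (12.8%) at processed_transcript genes and 13 at genes of 2 types. Together they lay in the promoters of 1347 lncRNA genes, of which 1233 had 1 member. Of the members 57 were also in a promoter of another gene type, 17 of them in that of a microRNA gene and 11 in that of a snoRNA gene, and 25 members lay in lncRNA promoters of both strands. The place of members differed by gene type. Between coding genes were 86.4% of lincRNA members and 17.6% of antisense members. Of antisense members, 48.6% were in a coding intron and 33.8% in a coding exon or UTR. Of the 380 antisense members inside a coding gene, 372 were inside a gene on the opposite strand alone, at a median position of 28.5% of that gene's length from its start.

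Most annotated lncRNA genes had no accessible promoter in these ES cells. Of 8875 autosomal lncRNA genes, 15.2% (95% Wilson interval 14.4 to 15.9%) had a region of their own, 7.48% had one shared with a coding promoter, and 77.3% had none, whereas 58.9% of 20807 coding genes had a region. All intervals treat genes or regions as independent and cover counting error only. By type, an own region was found for 14.1% of lincRNA, 15.0% of antisense and 23.1% of processed_transcript genes. The processed_transcript share exceeded the lincRNA share by 8.96 points (95% Newcombe interval 5.93 to 12.2), and the antisense and lincRNA shares were not told apart (difference 0.819 points, -0.765 to 2.45). Genes with more transcripts have more windows in which a region can lie, and the share rose from 11.8% of genes with 1 transcript to 22.3% with 2 to 4 and 41.4% with 5 or more. Among genes with 1 transcript a region, own or shared, was found for 17.3% of lncRNA genes and 26% of coding genes (difference 8.66 points, 7.03 to 10.3), and the processed_transcript share of own regions was 4.65 points above the lincRNA share (0.646 to 9.55). Better supported gene models were open more often: 19.3% at transcript support level 1 against 8.35% at level 5, a difference of 10.9 points (8.88 to 12.8), which was 7.03 points (4.88 to 9.05) among genes with 1 transcript.

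**Figure D1:**
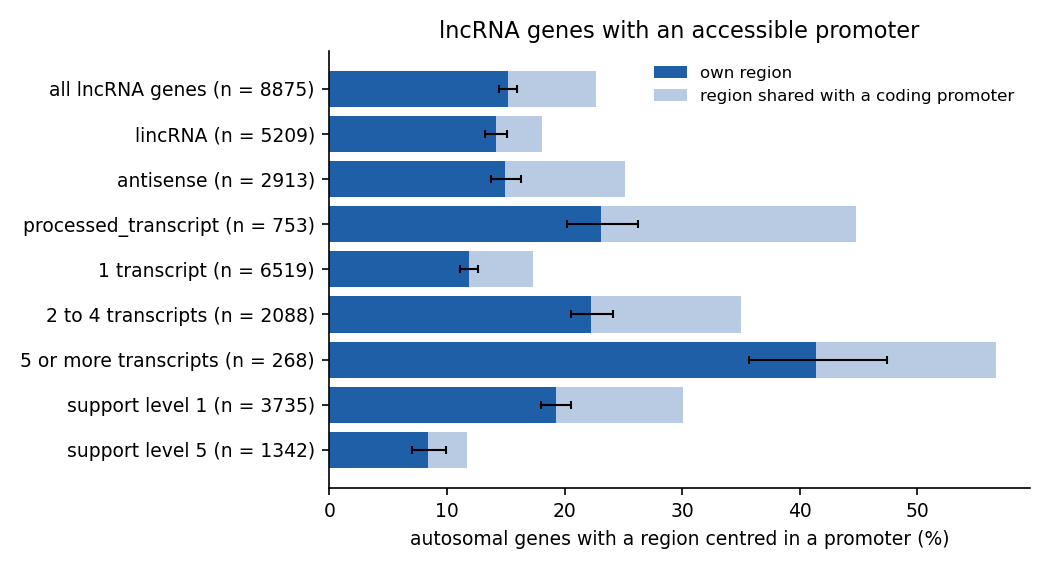
Percent of autosomal lncRNA genes with a region centred in a promoter (horizontal axis), by gene type, number of transcripts and transcript support level (n beside each bar). Dark bars are own regions with 95% Wilson intervals and pale bars add regions shared with a coding promoter; the own share ran from 8.35% at support level 5 to 41.4% with 5 or more transcripts.

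Accessibility was centred on lncRNA starts even far from coding genes. Among 6190 lncRNA genes starting over 5 kb from a coding TSS, a region covered the gene start in 10.1% (9.36 to 10.9%). The highest share was 10.2% at 50 bp upstream, 6.47-fold the mean of 1.57% found 4 to 5 kb away. In this far class, starts of processed_transcript genes were covered in 22.1% (18 to 26.8%), of lincRNA genes in 9.74% (8.91 to 10.6%) and of antisense genes in 8.13% (6.78 to 9.71%). Starts within 1 kb of a coding TSS were covered in 52.9%, close to the 53.6% of coding genes themselves. Counted by space, windows of lncRNA promoters outside coding promoters held 136 regions per Mb, 4.10-fold the autosomal mean of 33.1, and coding promoter windows held 250 per Mb (249.7).

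**Figure D2:**
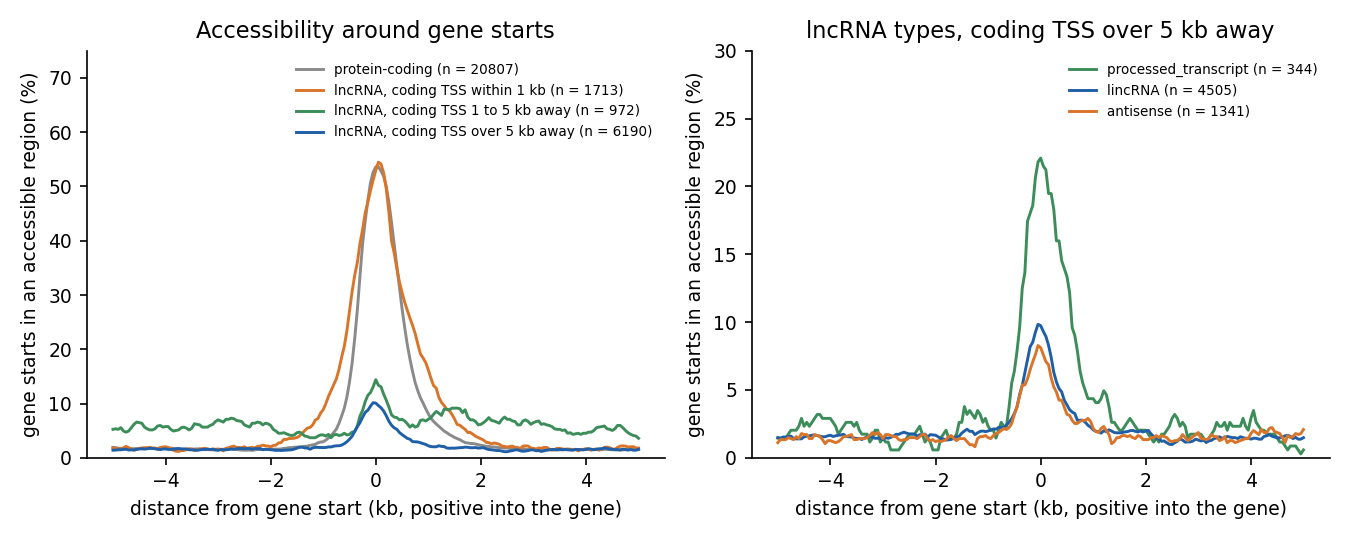
Percent of gene starts that lie in an accessible region (vertical axis) by distance from the gene start in kb (horizontal axis, positive into the gene), for coding genes and lncRNA genes by distance to a coding TSS (left) and for lncRNA types over 5 kb from a coding TSS (right). At the start the share was 53.6% for coding genes and 10.1% for lncRNA genes over 5 kb from a coding TSS.

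In sequence the members stood between coding promoters and regions outside promoters. A region was called CpG-rich when its GC content was at least 50% and its observed over expected CpG at least 0.6. Of the members 31.8% (29.4 to 34.2%) were CpG-rich, against 65.6% of the 13290 regions in coding promoters alone (difference -33.8 points, -36.3 to -31.3) and 8.71% of the 62759 regions outside promoters (difference 23.0 points, 20.7 to 25.5). The 1027 regions in promoters of other gene types alone were not told apart from members, at 28.6% (difference 3.13 points, -0.558 to 6.76). The median CpG ratio was 0.46 in members (0.439 to 0.481), 0.705 in coding promoter regions and 0.25 outside promoters. Members were also intermediate in width, with a median of 439 bp (416 to 460) against 630 bp in coding promoter regions and 320 bp outside. The 763 regions in both kinds of promoter at once, where a coding and an lncRNA TSS lie close together, were wider still, at 740 bp, and 80.6% of them were CpG-rich.

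Members were also intermediate in the share of repeat-rich regions. At least 50% of the bases were repeat-masked in 4.79% of members, 1.28% of coding promoter regions (difference 3.52 points, 2.51 to 4.76) and 16.5% of regions outside promoters (difference -11.7 points, -12.8 to -10.5). Regions without a repeat base were 29.5% of members and 28.9% of coding promoter regions (difference 0.648 points, -1.78 to 3.18). Outside promoters they were 25.8% (difference 3.73 points, 1.405 to 6.16), so members were not intermediate on this measure. Fewer members than coding promoter regions covered a TSS of their kind, at 61.2% (58.7 to 63.7%) against 80.7% (difference -19.4 points, -22.1 to -16.9). The members' centres lay within 100 bp of the TSS in 40.1% and within 200 bp in 53.9%. Neighbouring accessible regions were common: 58.9% of members had another within 5 kb, compared with 52.1% of coding promoter regions (difference 6.83 points, 4.13 to 9.48) and 47.0% of regions outside promoters (difference 11.9 points, 9.34 to 14.5). Within 1 kb the share was 32.5%, not measurably above coding promoter regions (difference 2.22 points, -0.277 to 4.80).

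**Figure D3:**
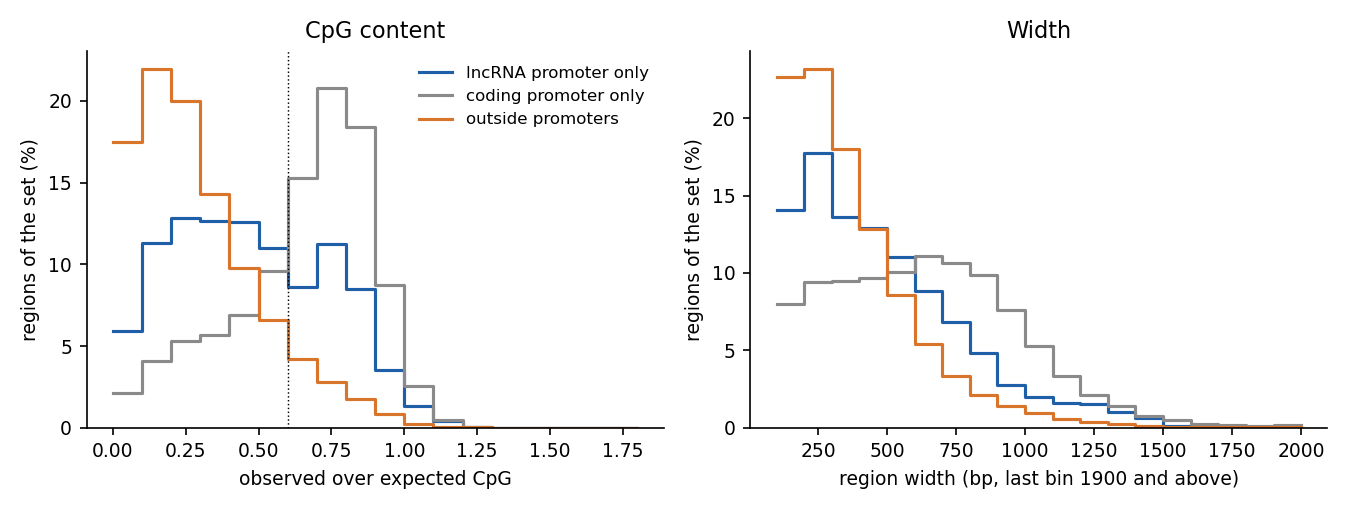
Percent of regions in each set (vertical axes) by observed over expected CpG (left, dotted line at 0.6) and by width in bp (right, last bin open), for lncRNA promoter, coding promoter and non-promoter regions. The medians were 0.46, 0.705 and 0.25 for the CpG ratio and 439, 630 and 320 bp for the width.

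A CpG-rich start went with an accessible promoter. The 300 bases around each gene start, from 250 upstream to 50 downstream, were CpG-rich in 30.5% of lncRNA genes with an own region and 4.75% of genes with none (difference 25.8 points, 23.3 to 28.3). Over all lncRNA genes, 33.7% with a CpG-rich start and 12.2% with another start had an own region (difference 21.5 points, 18.8 to 24.3). Among the genes starting over 5 kb from a coding TSS, where few regions are shared with a coding promoter, 156 of 259 with a CpG-rich start had an own region, or 60.2% (54.2 to 66%), against 12.1% of 5931 without such a start (difference 48.2 points, 42.0 to 54.0). Starts with at least 50% repeat had an own region in 8.83% of all lncRNA genes, against 16.0% of the others (difference -7.19 points, -8.97 to -5.14), and among the far genes the difference was -6.15 points (-8.10 to -3.91). The shares are descriptive and do not take the number of transcripts into account.

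CpG-rich members were concentrated near coding genes. The median distance to the closest coding TSS was 15325 bp (12874 to 17469), and 494 members (34.3%) lay within 5 kb. Members within 1 kb of a coding TSS were CpG-rich in 75.4%, those at 1 to 5 kb in 31.3%, and those over 100 kb away in 11.5%. Antisense members were CpG-rich more often than lincRNA members over all distances, at 41.0% against 23.4% (lincRNA minus antisense -17.6 points, -22.9 to -12.2). Over 5 kb from a coding TSS the shares were 18.5% and 17.2%, and the difference of -1.27 points had an interval that included 0 (-8.26 to 4.67). Processed_transcript members stayed above lincRNA members there, at 27.6% (lincRNA minus processed_transcript -10.4 points, -20.0 to -2.15, and -19.5 points, -27.3 to -11.9, over all distances).

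Orientation was read from the start of the lncRNA and that of the closest coding gene. The rule removed regions centred up to 1000 bp upstream or 100 bp downstream of a coding TSS. All members centred within 1 kb of a coding TSS therefore have their centre downstream of it by rule, though a wide one can still cover that TSS. Their lncRNA may start on either side. Of these 280 members, 55.4% (49.5 to 61.1%) belonged to an lncRNA head to head with the coding gene, starting upstream of it on the opposite strand, and 43.2% (37.5 to 49.1%) to an lncRNA starting downstream on the opposite strand. Of the 214 members 1 to 5 kb from a coding TSS, 40.7% (34.3 to 47.3%) were head to head. In 46.7% (40.2 to 53.4%) the lncRNA started downstream of the coding start on the opposite strand, and in 12.6% (8.82 to 17.7%) both were on the same strand. Whether the closest coding gene itself had an accessible promoter did not differ measurably between lncRNA genes with and without an own region: 73.1% against 68.8% at 5 to 50 kb (difference 4.25 points, -0.0789 to 8.30), 70.1% against 71.4% over 50 kb (-1.23 points, -6.52 to 3.66) and 61.9% against 69.2% at 1 to 5 kb (-7.31 points, -15.2 to 0.236).

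**Figure D4:**
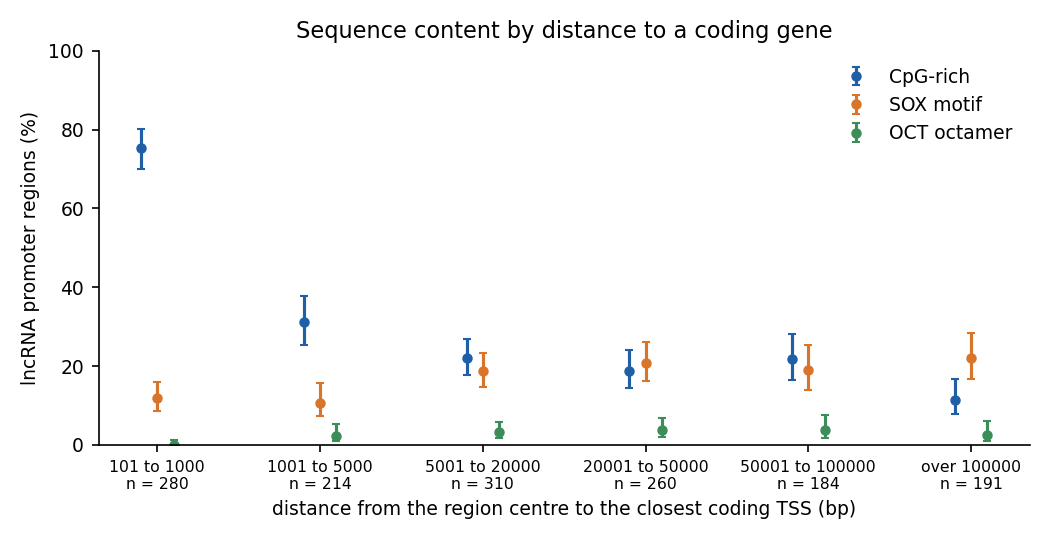
Percent of lncRNA promoter regions (vertical axis) that were CpG-rich or held a SOX motif or the OCT octamer, by distance from the region centre to the closest coding TSS in bp (horizontal axis, n below each class), with 95% Wilson intervals. The CpG-rich share was 75.4% within 1 kb and 11.5% over 100 kb, and the SOX share 11.8% and 22%.

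Over their whole width, members did not differ measurably from regions outside promoters in OCT and SOX words. The octamer was found in 37 members, or 2.57% (1.87 to 3.52%), and the difference was 0.494 points from coding promoter regions (-0.251 to 1.47) and -0.182 points from regions outside promoters (-0.894 to 0.779). A SOX motif was found in 245 members, or 17% (15.2 to 19.1%), which was 3.47 points above coding promoter regions (1.53 to 5.58) and not told apart from regions outside promoters (0.496 points, -1.38 to 2.55). Wider regions hold more letters, so the search was repeated in the central 300 bp, where 11.5% of members, 6.40% of coding promoter regions and 14.1% of regions outside promoters held a SOX motif. There the members were 5.13 points above the former (3.53 to 6.93) and -2.55 points from the latter (-4.12 to -0.775). The octamer was in 1.53% of members there, -0.826 points from regions outside promoters (-1.36 to -0.0424). Flanks of the same width 5 kb away that held no region had the octamer in 3.91% and a SOX motif in 15.9% of 1432 pairs, against 2.51% and 16.9% in the members (paired differences -1.40 points, -2.73 to -0.0934, and 0.978 points, -1.68 to 3.63). Flanks were poorer in GC (median 44.9% against 55%). In the 351 pairs within 5 points of GC, a SOX motif was in 17.9% of members and 12.5% of flanks (paired difference 5.41 points, 0.119 to 10.7), and the octamer in 2.85% and 1.99% (0.855 points, -1.61 to 3.41).

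Motif content also varied among the members. None of the 280 members within 1 kb of a coding TSS held the octamer, which allows a share of up to 1.35%, and over 5 kb from a coding TSS the share was 3.39%, compared with 1.01% within 5 kb (difference 2.37 points, 0.719 to 3.85). SOX motifs followed, at 20.0% over 5 kb and 11.3% within 5 kb (difference 8.66 points, 4.73 to 12.3). Composition differed as well, with 18.9% of members over 5 kb CpG-rich against 56.3% within 5 kb. The word TATAAA, which is neither an OCT nor a SOX word, was in 13.8% and 6.68%. These motif shares were not adjusted for composition. Members that covered their TSS held SOX motifs in 20.4% and those that did not in 11.6% (difference 8.78 points, 4.91 to 12.5), but the covering regions were wider, with medians of 556 and 280 bp.

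The GC box, ETS and NRF1 words were less frequent in members than in coding promoters. In the central 300 bp the GC box GGGCGG, bound by the SP and KLF families, was in 33.6% of members, 60.9% of coding promoter regions (difference -27.3 points, -29.8 to -24.7) and 16.7% of regions outside promoters (difference 16.9 points, 14.5 to 19.4). The ETS word CCGGAAGT was in 2.71%, 5.74% and 0.817%, and the NRF1 core CGCATGCG in 1.04%, 2.41% and 0.303%. The KLF word CCACACCC was in 5.49% of members and 4.35% of coding promoter regions (difference 1.14 points, 0.0186 to 2.48), and over the whole width the difference was -0.58 points (-1.93 to 0.976). The TATA box TATAAA was more frequent in members than in coding promoter regions in this window (7.30% and 4.49%, difference 2.80 points, 1.52 to 4.30) but not measurably over the whole width (difference 1.58 points, -0.0368 to 3.39). The consensus of CTCF, the insulator protein, was in 4.17% and 1.49% in this window (difference 2.68 points, 1.74 to 3.86), and both shares in members were below the regions outside promoters, at 11.8% and 6.49%. All words were read on both strands and a stretch can count towards several of them. In the same window of all autosomal regions, the GC box was in 25%, ETS in 1.74%, NRF1 in 0.695%, KLF in 6.20%, TATA in 10.4% and CTCF in 5.55%.

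**Figure D5:**
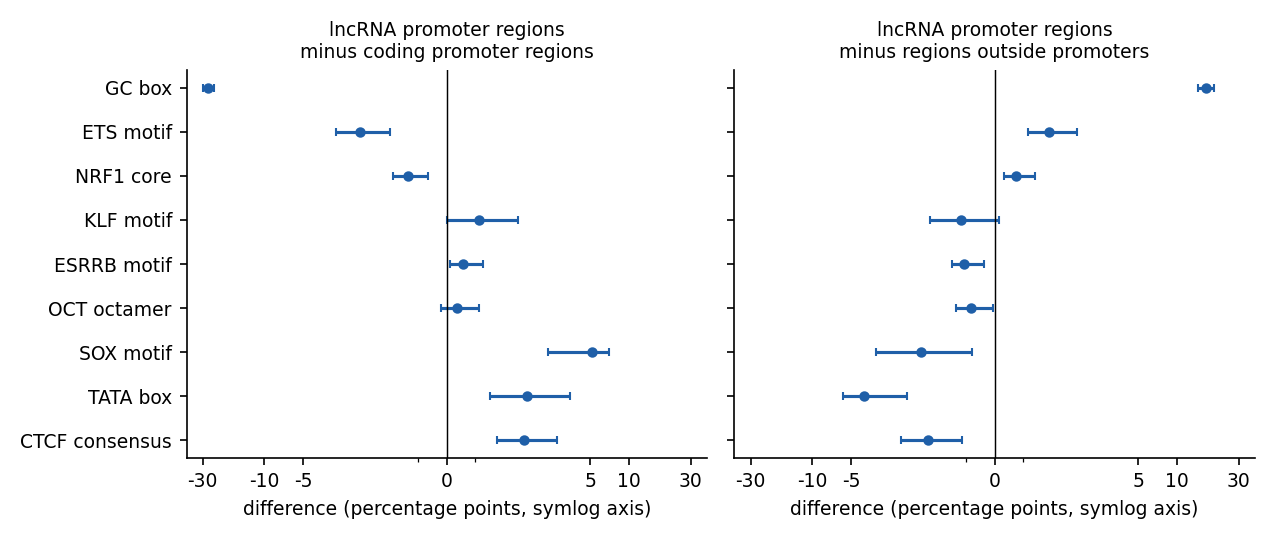
Difference in the percent of regions with each motif in the central 300 bp, lncRNA promoter regions minus coding promoter regions (left) and minus regions outside promoters (right), in percentage points on a symlog axis; points are differences and bars 95% Newcombe intervals. The GC box was -27.3 and 16.9 points apart and the SOX motif 5.13 and -2.55 points.

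Pluripotency lncRNAs were represented by regions rich in repeats. Of 29 autosomal genes of the 3 types on the list, 13 had an own region (44.8%, 28.4 to 62.5%, against 15.2% of all lncRNA genes and 27.5% of those with a gene symbol), 2 had one shared with a coding promoter (Platr20 and Platr23) and 14 had none, while 3 further names (Platr17, Platr25 and Tunar) are typed as coding in the annotation. Their 14 regions had a median repeat content of 35.9% and a median CpG ratio of 0.232, against 6.67% and 0.46 over all members. At least 20% of the bases were repeat in 11 of the 14, against 16.5% of all members and 29.5% of all autosomal regions, and 1 was CpG-rich. Platr1 was the most repeat-rich, with 76.9% over 516 bp. Lncenc1, an lncRNA of ES cells, had a region of 739 bp that was 42.4% repeat, 241724 bp from the closest coding TSS, that of Enc1. Platr22 had 2 regions. The region of Evx1os, antisense to the mesoderm regulator Evx1, lay 1359 bp from a coding TSS and was 12.9% repeat. Repeat content was also below 20% in Platr12 (11.8%) and in a region of Platr22 (0%). Halr1, in the Hoxa neighbourhood, had none.

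Imprinted lncRNAs had an own region at 4 of 8 autosomal genes, a share with an interval (21.5 to 78.5%) that includes the 27.5% of genes with a symbol. Airn, which silences Igf2r, had a region of 566 bp inside Igf2r, centred 5 bp from its TSS. Kcnq1ot1, which silences the Kcnq1 cluster, had 721 bp inside Kcnq1, and Nespas at Gnas had 672 bp. Meg3, a maternally expressed RNA, had 2 regions, centred -15 and -738 bp from a TSS. None of these 5 regions met the CpG-rich threshold, although the ratio of Nespas, 0.593, fell just short. No region was found in the promoters of H19, Rian, Mirg or Snhg14. The list cannot tell the parental chromosomes apart.

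Hosts of snoRNAs, many of which serve ribosome assembly, had wide regions on their TSS. Of 17 autosomal genes of the 3 types, 8 had an own region (47.1%, 26.2 to 69.0%, an interval that includes the 27.5% of genes with a symbol), 7 shared one with a coding promoter (Gas5, Snhg1, Snhg3, Snhg9, Snhg10, Snhg18 and Zfas1), against 14.2% of genes with a symbol, and 2 had none (Snhg8 and Snhg14). All 10 regions covered a TSS, against 61.2% of all members, and 7 were CpG-rich, against 31.8%. Their median width was 978.5 bp, against 439 bp over all members. The widest, 1748 bp at Snhg5, had a CpG ratio of 0.847 and held 4 SOX motifs. Snhg12 and Snhg15 each had a wide CpG-rich region and a narrower one with a ratio of 0.325 and 0.141.

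Broadly expressed or nuclear lncRNAs and microRNA hosts had an own region at 13 of 18 genes (72.2%, 49.1 to 87.5%), against 15.2% of all lncRNA genes and 27.5% of those with a gene symbol. Neat1, the scaffold of paraspeckles, had a region of 925 bp that is also the promoter of Frmd8os, while Malat1, its neighbour and a nuclear speckle RNA, had none. Lncpint had 3 regions, and Pvt1, which lies beside Myc, had 2, with CpG ratios of 0.615 and 0.2. Mir17hg, the host of a growth-promoting microRNA cluster, had a region centred -408 bp from the TSS. Mir124a-1hg, Mir124-2hg and Mir9-3hg, hosts of neuronal microRNAs, had 1, 1 and 2 regions. Mir133a-1hg and Mir142hg had none. Of the 18 regions 14 covered a TSS, against 61.2% of all members, and 11 were CpG-rich, against 31.8%. The shares of this and the other lists were not adjusted for the number of transcripts. Over all lncRNA genes the own share was 11.8% with 1 transcript and 41.4% with 5 or more.

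At developmental regulators 6 of 21 lncRNA genes had an own region (28.6%, 13.8 to 50.0%, against 27.5% of genes with a symbol). A region shared with a coding promoter was found for 8 (Emx2os, Fendrr, Hotairm1, Hoxa11os, Lhx1os, Pantr1, Wt1os and Zeb2os), compared with 14.2% of genes with a symbol, and 7 had none, among them Hotair, Hottip and Sox2ot, which contains Sox2 in an intron. Of the 9 member regions, 6 were CpG-rich, against 31.8% of all members. The 9 had a median width of 293 bp, against 439 bp over all members, and ranged from 180 to 618 bp. They lay at Hand2os1, Hoxb3os, Nkx2-2os, Otx2os1, Six3os1 and Rmst, a neuronal lncRNA 553188 bp from the closest coding TSS. The others were within 3 kb of a coding TSS, as in Hand2os1, whose 2 regions lay 524 and 1137 bp from the TSS of Hand2, a heart and limb factor. A region of Otx2os1 was centred 113 bp downstream of the TSS of Otx2, just past the coding window, and with its 293 bp it covered that TSS. Of the 9 regions 5 covered an lncRNA TSS, and neither region of Hand2os1 did.

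Of the 5 widest members 4 lay inside coding genes, while 60.5% of all members lay between coding genes. The 5 widest were at Gm16499 (2918 bp, in an exon or UTR of Tril), Gm30270 (1804 bp, in Tspan12), Snhg5 (1748 bp), A330008L17Rik (1716 bp, in Cdh8) and Gm1715 (1649 bp, in AI593442). In the 4 other than Snhg5 the coding gene was on the opposite strand. Gm30270, A330008L17Rik and Gm1715 started head to head with it, 590, 323 and 434 bp from its TSS, and Gm16499 started 856 bp downstream of it. The coding TSS lay 1444 bp from the region centre in Gm16499, 131 in Gm30270, 277 in A330008L17Rik and 427 in Gm1715. All 4 regions therefore covered a coding TSS, and that of Gm1715 did not cover its lncRNA TSS. The gene with the most regions was 3110039I08Rik with 4, all between coding genes over 200 kb from a coding TSS (214571 bp for the closest). The next, with 3 each, included 9030622O22Rik beside Foxa2, an endoderm factor, C130071C03Rik beside Mef2c, a muscle and neuronal factor, 4930535E02Rik and Gm19705. In all, 9 genes had 3 regions, and the ones named come first in the alphabet.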

How the data were processed

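The merged ATAC list was analysed; the ChIP-seq samples were not. Per the labels and the methods, the authors aligned reads to mm10 with STAR (2.5.3a), kept unique hits, removed duplicates with Picard, called peaks in each library with MACS2 (2.1.1.20160309), joined the calls of the 12 libraries using BEDOPS and dropped those that overlapped peaks of a ChIP-seq input; the submitters' processing notes also name deepTools (2.4.2). The methods name no Tn5 shift. The unit of the deposited values is other: start and end of each region in base pairs, with no level per library, so no comparison was made between SHOH, SHOL, SLOH and SLOL. Regions were assigned by their centre to GENCODE M21 transcripts, and sequence, repeat masking and motifs were read from GRCm38, with Python (3.11.15), numpy (2.4.6), pandas (2.3.3), scipy (1.17.1), pysam (0.24.0), samtools (1.23.1) and matplotlib (3.10.9). Shares have 95% Wilson, differences Newcombe (paired for flanks) and medians exact order-statistic intervals, tested on simulated data. Members sharing sequence had at least 50 words of 20 bases in common. The members and lists were chosen with earlier results of these data known. Named genes were 5 gene lists (with the highest and lowest CpG ratios for sequences), markers, the 5 widest members, the 5 genes with most members, the 5 widest members with both motifs and the window edges; others were chosen after their values were seen.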

Additional observations from a re-analysis of the deposited data

How the results depend on the processing

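Of 113 alternative values for 9 results, 84 stayed inside the 95% interval of the value reported (for the number of members, within 1.5 times it) and 29 did not. With regions within 5000 bp of a coding TSS left out, there were 945 members, 10.0% of lncRNA genes had one, 64.0% of members covered a TSS, 18.9% were CpG-rich, 20.0% held a SOX motif, the median repeat share was 7.92% and the median distance to a coding TSS 34056 bp. A promoter of 2 kb upstream to 0.5 kb downstream gave 19.5% of genes, 44.4% covering a TSS, a width of 390.5 bp, 21.7% CpG-rich and 21378.5 bp; any overlap gave 16.8%, 55.8%, 26.2% CpG-rich and 19833 bp. With 500 bp upstream the values were 12.5% of genes, 78.6% covering a TSS and 481 bp, and without regions narrower than 200 bp 13.4%, 66.5% and 490 bp. A single TSS per gene gave a width of 480 bp and 39.4% CpG-rich, GENCODE basic transcripts 35.7% CpG-rich, thresholds of GC 55% and ratio 0.65 25.2% CpG-rich, and adding chromosomes X and Y 14.3% of genes. In the central 300 bp the octamer was in 1.53% and a SOX motif in 11.5%. The cause of these changes was not tested beyond what each setting removes or adds. No paired analysis was possible because the list holds no value per library. A region may come from a single library or from all 12, the list does not give the depth, and a gene without a region may have one below the detection limit. The line is a single knock-in clone of ES cells, and annotated TSSs may not be those used there.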

Other observations

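Some members share sequence with other members. Of the 1439, 50 (3.47%, 2.65 to 4.55%) shared at least 50 words of 20 bases with another, in 19 groups, of which 11 were pairs. The largest group had 5 members, of which E430024I08Rik, Gm47467, Gm47469 and Gm46430 lie on chromosome 13 and a region of Gm1976 and Gm26734 on chromosome 17. The 50 had a median repeat share of 7.06%, against 6.67% over all members. Among genes on the pluripotency list, Platr10 shared words with 9330185C12Rik and Gm29630, and its region was 64.6% repeat, while Platr9 shared words with Gm34397. These genes, and those in the next paragraph, were chosen after their values were seen.

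Chromosomes differed in their share of members, which also depends on how many other regions a chromosome holds. On chromosome 6, with 45.1 regions per Mb, members were 1.41% of the regions although 19.6% of its lncRNA genes had a member. Members were 2.68% (2.19 to 3.27%) of the regions on chromosome 17 and 1.38% (1.09 to 1.74%) on chromosome 4, with a median of 1.84% over the 19 autosomes, and chromosome 17 was also highest in lncRNA genes with a member, at 22.2% (18.4 to 26.5%). The member farthest from a coding TSS, at 9330185C12Rik on chromosome 1, was 1720407 bp away. Members masked entirely as repeat numbered 4, at AC144797.1, Gm36816, Gm29719 and AY512931. A region of 9030622O22Rik had a CpG ratio of 0, and another of the same gene, 142 bp wide, had 1.26.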
